A study of Mus musculus with 2 samples.

Results

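The genes described here are 7 carriers of lipids and small hydrophobic molecules: *Apoe*, *Apod*, *Clu*, *Ptgds*, *Fabp5*, *Fabp7* and *Fabp3*. They were taken by symbol from the 32285 genes of the deposited count tables, and all 7 were found. They were chosen by their measured log2 ratios, since *Apod* was already known to be higher and *Apoe* lower in oligodendrocytes of the SAH library. The oligodendrocyte values of these genes are therefore given as a description. Nuclei were isolated from the ipsilateral hemisphere between the medial prefrontal cortex, 2.34 mm anterior to bregma, and the centrolateral thalamic nucleus, 2.18 mm posterior to bregma. The Normal library was a pool of tissue from 3 male mice, and the SAH library was a pool from 3 male mice 12 h after subarachnoid haemorrhage made by endovascular perforation. The labels give an age of 6 to 8 weeks for both groups, and whether the Normal mice had a sham operation was not settled by the sources used here. With 1 library per condition there was no replicate check, no test between conditions was made, and a difference between libraries cannot be told apart from a difference between conditions. All intervals are 95% intervals that cover counting error only.

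Lipids do not dissolve in the fluid around cells, so brain cells pass them to each other on secreted protein carriers. Apolipoprotein E (*Apoe*) is the main protein of the lipoprotein particles made in the brain, chiefly by astrocytes and, after injury, by microglia and macrophages. Apolipoprotein D (*Apod*) is a lipocalin, a small cup-shaped protein that binds arachidonic acid and other lipids, and it is made by oligodendrocytes and by cells of the meninges and vessels. Clusterin (*Clu*, apolipoprotein J) is a secreted chaperone of astrocytes and some neurons. Prostaglandin D2 synthase (*Ptgds*) is a lipocalin too, made by oligodendrocytes, the meninges and the choroid plexus, and it both makes prostaglandin D2 and carries hydrophobic ligands in the cerebrospinal fluid. The fatty acid binding proteins stay inside the cell, where *Fabp5*, *Fabp7* (astrocytes and progenitors) and *Fabp3* (neurons and heart) carry fatty acids between compartments.

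*Apod* lies on the minus strand of chromosome 16, at chr16:31296192-31314808 (GRCm38), and *Apoe* on the minus strand of chromosome 7, at chr7:19696109-19699188. *Ptgds* is at chr2:25466709-25470046, *Clu* at chr14:65968483-65981547, *Fabp5* at chr3:10012548-10016607, *Fabp7* at chr10:57784881-57788450 and *Fabp3* at chr4:130308595-130315463. *Fabp3* overlaps 2 genes of the other strand, *Gm10570* and *Zcchc17*, and *Fabp5* and *Fabp3* have near-identical processed copies elsewhere in the genome, so their counts are less certain. The 250 bases before the start of *Apod* (chr16:31314809-31315058) and of *Apoe* (chr7:19699189-19699438) are shown because these were the 2 secreted carriers that moved in opposite directions. Both are the minus strand, from RefSeq for GRCm38.p6, written 5′ to 3′, with capitals for any base in a searched motif.
Apod: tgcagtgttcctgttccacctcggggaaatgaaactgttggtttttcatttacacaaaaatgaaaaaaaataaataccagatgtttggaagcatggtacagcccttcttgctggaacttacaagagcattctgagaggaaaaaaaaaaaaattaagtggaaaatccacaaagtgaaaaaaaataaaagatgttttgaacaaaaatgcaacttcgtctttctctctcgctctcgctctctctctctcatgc
Apoe: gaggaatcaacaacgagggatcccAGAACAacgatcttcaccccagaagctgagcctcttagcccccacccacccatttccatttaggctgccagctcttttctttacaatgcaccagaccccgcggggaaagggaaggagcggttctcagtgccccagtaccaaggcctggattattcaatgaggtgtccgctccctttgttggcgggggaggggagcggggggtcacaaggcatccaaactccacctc
The *Apod* stretch was rich in A and T, with 36.4% G and C, while the *Apoe* stretch held 57.2%, against a median of 52.4% over 32851 promoters. On both strands 6 motifs were searched: the TATA box TATAAA, the CCAAT box itself, the GC box GGGCGG, the E-box CACGTG, the AGAACA core of the glucocorticoid receptor site, and TGANTCA, the site of AP-1. *Apod* held none of them. *Apoe* held 1, the AGAACA in capitals, 226 bases before the start, and 16.1% of all promoters of this length held that motif. The shares of promoters with the others were 12.4% for TATAAA, 33.8% for CCAAT, 32.7% for GGGCGG, 6.02% for CACGTG and 6.75% for TGANTCA. A match describes the letters in this window and is no evidence that a factor binds there.

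The Normal library held 12204 nuclei and the SAH library 18209, with medians of 7252.5 and 8151 UMIs (unique molecular identifiers, 1 for each captured RNA molecule). After quality filters and removal of doublets 10955 and 15536 nuclei were kept. Of their 47 clusters, 4 were oligodendrocyte-like, with 1738 Normal and 3569 SAH nuclei. Other classes were microglia-like (992 and 1278), border macrophage-like (29 and 42), oligodendrocyte precursor-like (36 and 38), excitatory neuron-like (3636 and 5265), inhibitory neuron-like (1612 and 1880) and neurons that could not be named from either transmitter list (2862 and 3415, called other neuron-like). The last class includes cluster c16 (255 and 211 nuclei), which carried 3 excitatory markers but more markers of another type among its leading genes. A further cluster of 50 and 49 nuclei carried vascular leptomeningeal, astrocyte and endothelial markers together and was left unnamed. No astrocyte-like cluster was found. Nuclei with at least 8 of 12 astrocyte markers numbered 10 in Normal and 5 in SAH, all in the unnamed cluster, and those with at least 6 numbered 16 in each library, of which 11 and 10 were in that cluster. When nuclei were gated one at a time by their summed markers, 130 Normal and 210 SAH nuclei were astrocyte-like, and 65 and 223 were precursor-like. This gate gave the same class to 99.9% and 98.6% of the clustered oligodendrocyte-like nuclei. It did so for only 50.9% and 41.6% of the excitatory and 45.0% and 32.0% of the inhibitory neuron-like nuclei. In the text a level is a gene's UMIs scaled to the total UMIs of the class (CPM), and a gene rose or fell if its CPM differed by at least 2-fold with at least 50 UMIs in the class.

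**Figure D1:**
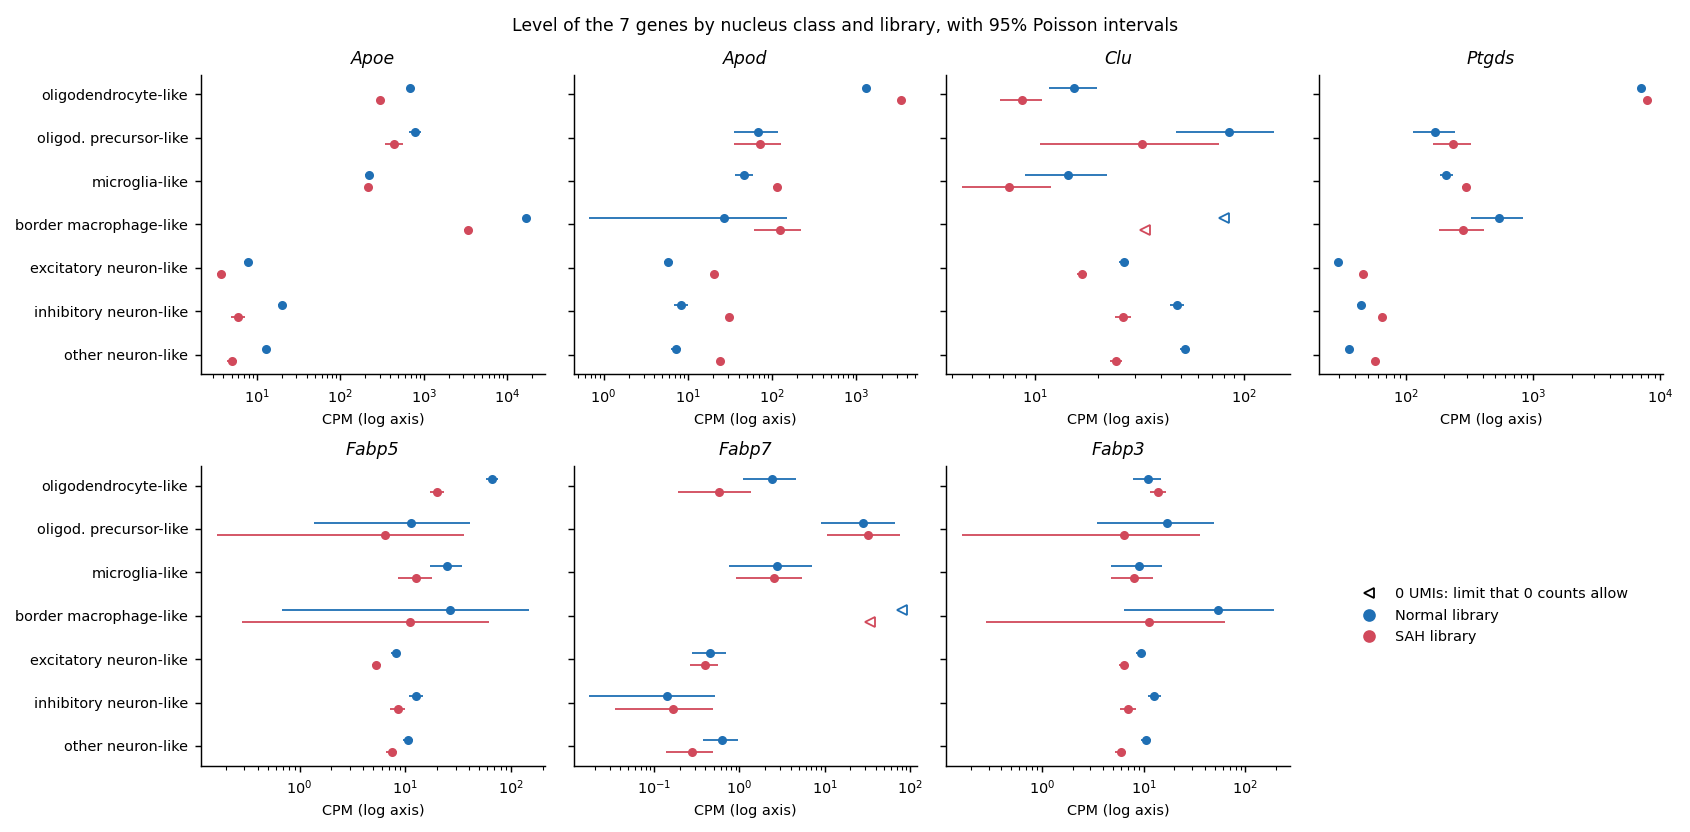
CPM of each gene (log axis) in each nucleus class, with blue points for the Normal and red points for the SAH library and bars for the exact 95% Poisson interval. An open triangle marks the limit that 0 UMIs allow. *Apod* and *Ptgds* are highest in oligodendrocyte-like nuclei and *Apoe* in border macrophage-like nuclei, where it stands at 16970 CPM in Normal and 3444 CPM in SAH.

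*Apoe*, the lipoprotein particle carrier, was lower in the SAH library in oligodendrocyte-like nuclei, neurons and border macrophage-like nuclei, and nearly level in microglia-like nuclei. Oligodendrocyte-like nuclei held 684 CPM in Normal (interval 657 to 711), from 2545 UMIs, and 301 CPM in SAH, from 2580 UMIs. This is a log2 ratio of -1.18 (interval -1.26 to -1.10), or 2.27-fold lower in SAH. In UMIs per nucleus the level went from 1.46 to 0.723. The share of nuclei with an *Apoe* UMI was 56.0% in Normal and 40.8% in SAH, at median depths of 1887.5 and 2196 UMIs. Thinned to 1000 UMIs, with 149 and 158 shallower nuclei left out, the shares were 41.6% and 24.4%. Excitatory neuron-like nuclei, far deeper at medians of 10788.5 and 12324 UMIs, had shares of 8.83% and 4.65% (0.908% and 0.608% when thinned) and 0.101 and 0.0507 UMIs per nucleus, below the oligodendrocyte values in both libraries. Thinning removes more from deep nuclei, and the part of free RNA in the oligodendrocyte level was not tested. Oligodendrocyte-like nuclei with many *Apoe* UMIs were fewer in SAH: 136 of 1738 Normal nuclei held at least 5 UMIs and 35.3% of the class's *Apoe*, against 46 of 3569 SAH nuclei and 10.3%. At least 10 were held by 14 Normal nuclei and 0 SAH nuclei, a count that allows a share of up to 0.0841%. Nuclei were also split into 3 groups by depth within each library. From shallowest to deepest the *Apoe* log2 ratios were -1.30, -1.16 and -1.22. The groups were not matched in depth, with medians of 1209.5, 1889 and 2946 UMIs in Normal and 1578.5, 2196.5 and 3177 in SAH. *Apoe* UMIs per nucleus changed little with depth, at 1.45, 1.46 and 1.49 in Normal and 0.737, 0.764 and 0.668 in SAH. The count per nucleus was itself lower in SAH in each group, and the clusters of this class also differed in depth. The part of depth in the CPM ratio was not tested. Relative to 500 genes of like length, however, the log2 ratio of the whole class was -0.58, which is short of 2-fold.

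The largest *Apoe* difference was in the border macrophage-like nuclei, the resident macrophages of the meninges and perivascular spaces. They held 16970 CPM in Normal (635 UMIs) and 3444 CPM in SAH (307 UMIs), a log2 ratio of -2.30 (interval -2.50 to -2.10). Of the 403 genes with enough UMIs in this class, 1 had a lower ratio. The groups were small, 29 and 42 nuclei, yet UMIs per nucleus went from 21.9 to 7.31, and all 29 Normal nuclei held *Apoe*, against 92.9% in SAH. In the same nuclei the summed border macrophage list (*Mrc1*, *F13a1*, *Cd163*, *Lyve1*, *Pf4*, *Ms4a7*, *Cbr2*; 7 of 7 detected in each library) went from 11652 to 16557 CPM. The microglia list (10 of 10 detected) went from 10877 to 4857 CPM, and the part of these shifts in the *Apoe* value was not tested. *Apoe* was the only member with 50 UMIs in this class, where 16.1% of the 403 genes rose and 6.45% fell. *Clu* had 0 UMIs in both libraries there.

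Microglia-like nuclei held 225 CPM of *Apoe* in Normal (327 UMIs) and 218 CPM in SAH (520 UMIs), a log2 ratio of -0.05 (interval -0.25 to 0.16). A few nuclei carried much of it: 10 of 992 Normal nuclei, each with at least 5 UMIs, held 42.8% of the class's *Apoe*, and 21 of 1278 SAH nuclei held 29.2%. These nuclei carried 0.5 and 1.57 UMIs of the border macrophage list each, against 0.0336 and 0.172 in the rest, and their identity was not tested. Outside them UMIs per nucleus were 0.190 in Normal and 0.293 in SAH. Relative to genes of like length, the microglial *Apoe* ratio was 0.55, in the other direction.

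In neurons *Apoe* was sparse and lower in SAH throughout. Excitatory neuron-like nuclei held 7.89 and 3.75 CPM (log2 ratio -1.07, interval -1.31 to -0.84), and other neuron-like nuclei 13.02 and 5.06 CPM (-1.36, interval -1.62 to -1.11). Inhibitory neuron-like nuclei held 20.2 and 6.04 CPM (-1.74, interval -2.08 to -1.42). A shallow cluster led by *Ebf2*, *Ndnf* and *Oxt*, here called c21, gave 37.6% of the Normal inhibitory UMIs, and without it the class held 12.9 and 5.48 CPM (-1.23). Of 28 neuron clusters with at least 50 nuclei in each library, *Apoe* was lower in SAH in 28, in 16 of them beyond counting error. The clusters share their library and are not replicates. Against genes of like length, the ratio in excitatory and in other neuron-like nuclei became -0.73 and -0.95, short of 2-fold, and stayed past it at -1.16 in inhibitory ones. Over all settings tried the ratio kept its sign but ranged from -1.12 to -0.66 in excitatory, -3.59 to -0.95 in inhibitory (-0.95 with nuclei gated on markers) and -2.33 to -0.95 in other neuron-like nuclei, so the 2-fold calls in neurons depend on the setting. The ends of -3.59 and -2.33 came with the excitatory level per nucleus subtracted as background. *Apoe* was itself lower in SAH in excitatory nuclei, so these ends cannot show the size of the difference. Precursor-like nuclei held 797 and 447 CPM (-0.84, interval -1.27 to -0.41), which is also short of 2-fold. Over all settings this ratio ranged from -3.48 to -0.71. The gate gave the same class to only 66.7% and 73.7% of these nuclei. They also carried 15.0 and 23.8 UMIs of the astrocyte list each, and their oligodendrocyte list went from 4583 to 803 CPM. The part of these in the *Apoe* value was not tested. The unnamed cluster held 2839 and 966 CPM, a log2 ratio of -1.55. The 10 and 5 nuclei in it with the most astrocyte markers held 221 and 45 *Apoe* UMIs. By level in SAH the order was border macrophage-like, unnamed, precursor-like, oligodendrocyte-like, microglia-like and then neurons, and the intervals of the inhibitory and other neuron-like classes overlapped.

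*Apod*, the arachidonic acid binding lipocalin, was higher in SAH in every class with at least 50 UMIs, and oligodendrocyte-like nuclei held most of it in both libraries: 87.0% of the UMIs in Normal and 89.3% in SAH. In these nuclei it stood at 1308 CPM in Normal (interval 1272 to 1346; 4870 UMIs) and 3414 CPM in SAH (29284 UMIs). The log2 ratio was 1.38 (interval 1.34 to 1.43), or 2.61-fold, and relative to genes of like length it was 1.54. The share of nuclei with an *Apod* UMI hardly moved, at 83.1% and 85.0% (67.6% and 72.8% when thinned), while the amount per nucleus did. The median was 2 UMIs in Normal and 4 in SAH, the highest nucleus 25 and 118, and the mean 2.80 and 8.20. The tenth of nuclei with the most *Apod* held 33.6% of it in Normal and 43.6% in SAH. Deeper nuclei differed more: the log2 ratio was 0.89 (interval 0.80 to 0.98) in the shallowest of the 3 depth groups, 1.32 in the middle one and 1.64 (interval 1.58 to 1.71) in the deepest.

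Across oligodendrocyte-like nuclei, then, *Apod* and *Apoe* moved apart: 191 *Apod* UMIs for every 100 of *Apoe* in Normal became 1135 in SAH. In this class 6 of the 7 genes had 50 UMIs: *Apod* rose, as did 8.08% of the 11404 genes tested, and *Apoe* and *Fabp5* fell, as did 5.84%. The rule that chose the genes used this contrast, so nothing is read from these counts. The summed oligodendrocyte marker list (12 of 12 detected) was itself lower in SAH, at 28695 and 17051 CPM, and its part in these values was not tested.

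**Figure D2:**
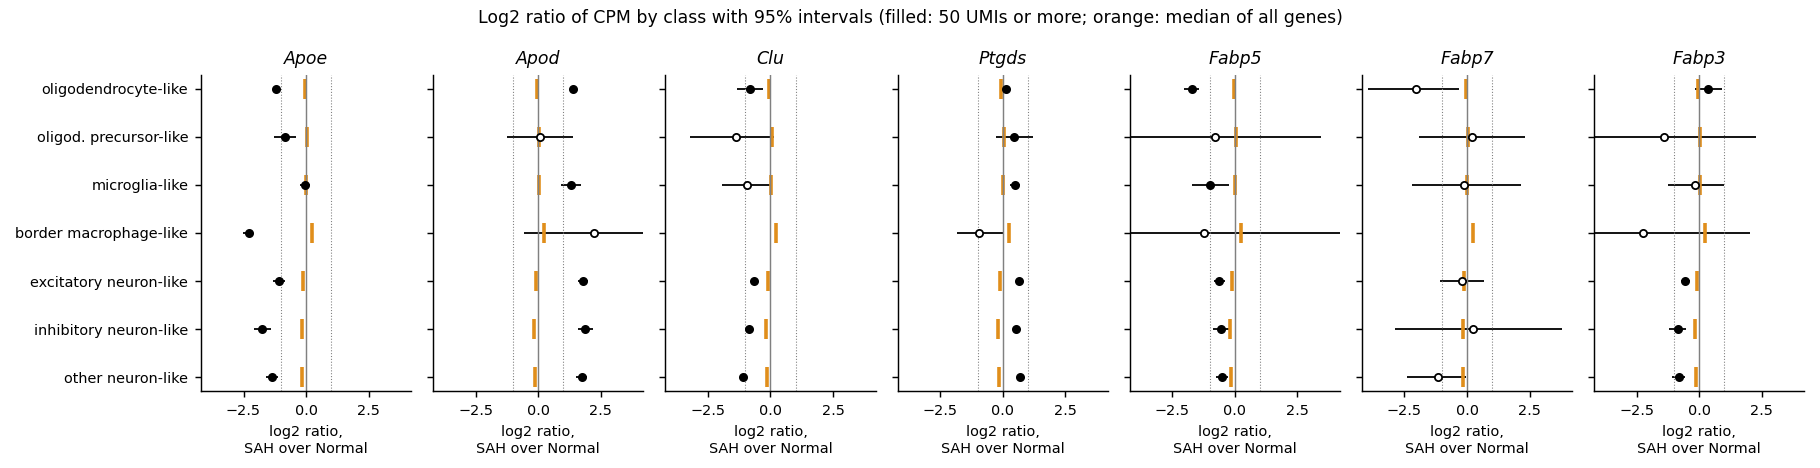
Log2 ratio of CPM, SAH over Normal, for each gene and class, with bars for the exact 95% interval (some run beyond the axis), filled points for genes with 50 UMIs or more in the class, dotted lines at 2-fold and an orange mark for the median of all genes tested. *Apod* lies past 2-fold upward and *Apoe* past 2-fold downward in oligodendrocyte-like and all 3 neuron classes.

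Outside oligodendrocytes *Apod* rose in microglia-like nuclei and in all 3 neuron classes. Excitatory neuron-like nuclei held 5.85 and 20.2 CPM (log2 ratio 1.79), inhibitory ones 8.31 and 30.5 CPM (1.88), other neuron-like nuclei 7.22 and 24.0 CPM (1.74) and microglia-like nuclei 46.7 and 115 CPM (1.30, interval 0.91 to 1.70). Per nucleus, the Normal level was 0.0751, 0.0720, 0.0769 and 0.0685 UMIs in these 4 classes, and the SAH level 0.274, 0.290, 0.279 and 0.214. The 4 classes thus carried like amounts in Normal, while in SAH the neuron classes were alike and microglia-like nuclei lower. *Apod* was higher in SAH in 28 of 28 neuron clusters, in 27 beyond counting error. Within a library the clusters ranged from 0.04 to 0.174 UMIs per nucleus in Normal and from 0.203 to 0.421 in SAH, and the 2 ranges did not overlap. The clusters share their library and are not replicates, and the SAH neuron classes were also deeper. The share of all genes with such ranges is not given here.

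The ratio of *Apod* to *Ptgds*, both abundant in oligodendrocytes, was nearly the same in oligodendrocyte-like nuclei and neurons of a library. For every 100 *Ptgds* UMIs there were 18.5 *Apod* UMIs in oligodendrocyte-like nuclei of the Normal library (interval 18.0 to 19.1), 20.1 in excitatory (17.6 to 22.9), 18.7 in inhibitory (15.2 to 22.9) and 20.1 in other neuron-like nuclei (17.3 to 23.2). In SAH the same ratio was 43.8 (43.2 to 44.4), 43.9 (41.2 to 46.7), 47.2 (42.6 to 52.3) and 41.9 (38.8 to 45.2). Microglia-like nuclei had 22.4 in Normal and 38.9 in SAH, with intervals that reached the oligodendrocyte value in both libraries. The *Apod* and *Ptgds* UMIs of neurons thus had the proportions found in oligodendrocyte-like nuclei of the same library. RNA freed from broken cells reaches all droplets of a library in 1 ratio, and its part in these values was not tested. The unnamed cluster stood apart, at 39.4 in Normal and 262 in SAH, and held 352 and 2311 CPM of *Apod* (log2 ratio 2.72, interval 2.23 to 3.24) in 50 and 49 nuclei.

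Neuron nuclei with at least 5 *Apod* UMIs were few and also carried oligodendrocyte transcripts. The 3 such excitatory nuclei in Normal averaged 69.7 UMIs of the oligodendrocyte list and the 5 in SAH averaged 19.6, against 1.73 and 1.58 in the rest. Among inhibitory nuclei 4 in SAH held 16.9% of the class's *Apod*, with 11 list UMIs each against 1.13. The oligodendrocyte list itself was not higher in SAH neurons, at 1.79 and 1.60 UMIs per excitatory nucleus and 1.36 and 1.15 per inhibitory nucleus. It was lower in SAH in oligodendrocyte-like nuclei too, at 61.5 and 41.0 UMIs per nucleus. Those nuclei were 15.9% of the kept Normal nuclei and 23.0% of the kept SAH nuclei. The part of free oligodendrocyte RNA in the neuron values was not tested. For *Apoe* the proportions were different, with 9.67 UMIs per 100 of *Ptgds* in Normal oligodendrocyte-like nuclei against 27.1, 45.5 and 36.2 in excitatory, inhibitory and other neuron-like nuclei, and 3.86 against 8.12, 9.33 and 8.82 in SAH. Neurons thus held more *Apoe* for their *Ptgds* than oligodendrocyte-like nuclei did in both libraries.

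**Figure D3:**
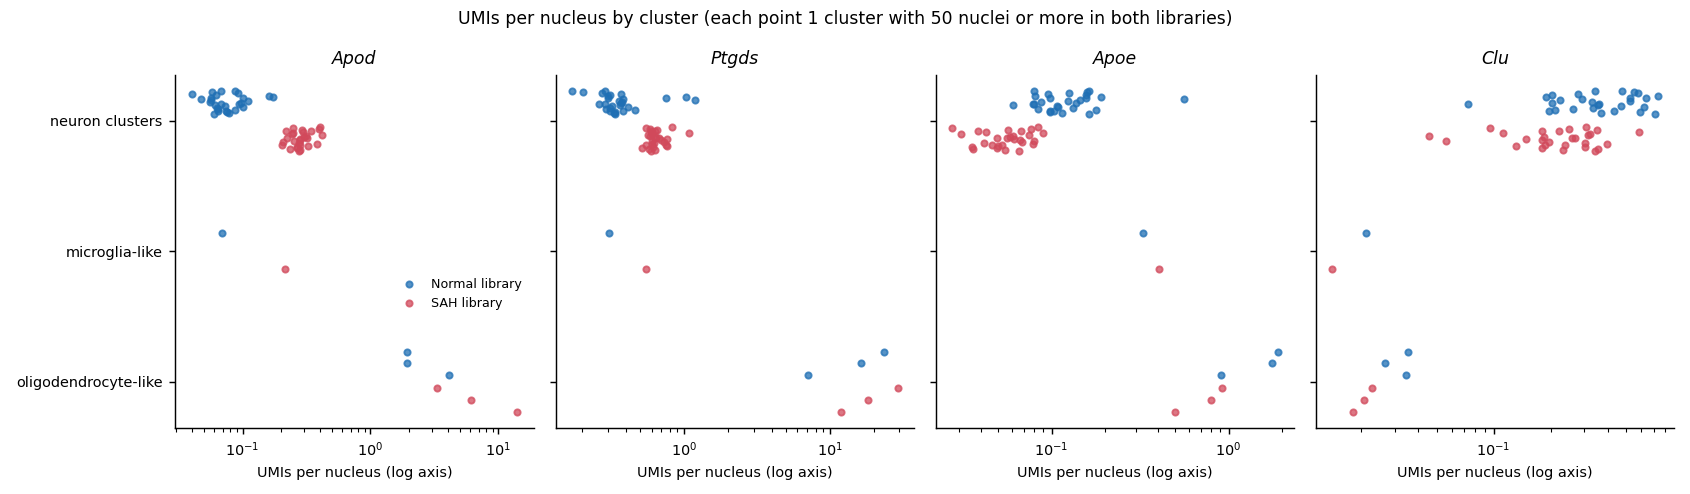
UMIs per nucleus (log axis) of 4 genes, with 1 point for each cluster of at least 50 nuclei in each library, in blue for Normal and red for SAH. The 28 neuron clusters lie close together for *Apod* (0.04 to 0.174 in Normal and 0.203 to 0.421 in SAH), while *Clu* is spread more widely. Per nucleus *Clu* is higher in neurons, which are mostly deeper, than in oligodendrocyte-like or microglia-like nuclei.

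**Figure D4:**
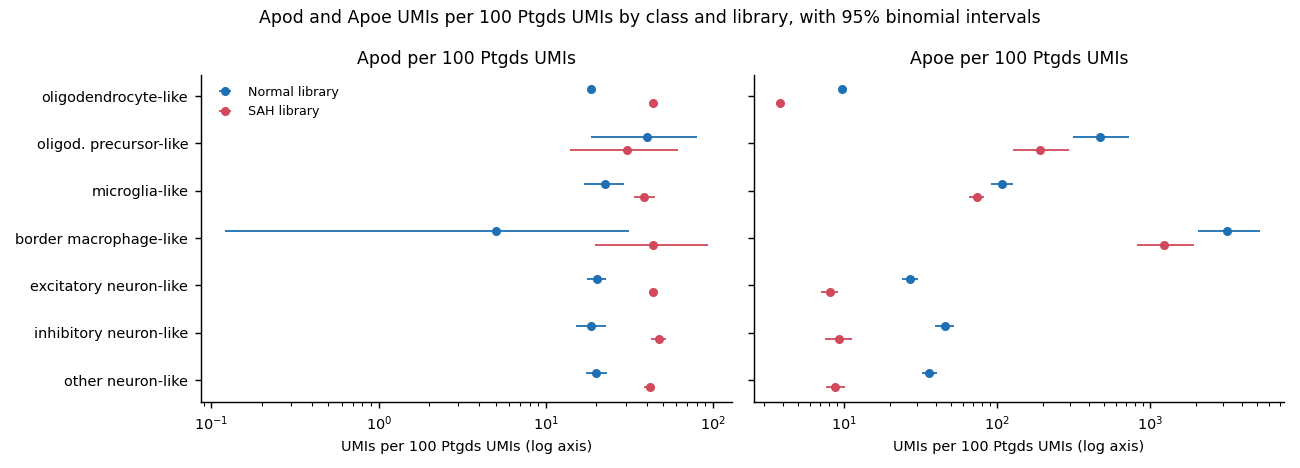
*Apod* and *Apoe* UMIs per 100 *Ptgds* UMIs (log axis) by class, in blue for Normal and red for SAH, with exact 95% binomial intervals. For *Apod* the oligodendrocyte-like class and the 3 neuron classes sit at 18.5 to 20.1 in Normal and at 41.9 to 47.2 in SAH, while for *Apoe* the classes are far apart.

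*Ptgds*, the prostaglandin D2 synthase, passed 2-fold in no class with 50 UMIs, although it was higher in SAH beyond counting error in oligodendrocyte-like nuclei, microglia-like nuclei and neurons. Oligodendrocyte-like nuclei held 7068 CPM in Normal (26308 UMIs) and 7795 CPM in SAH (66851 UMIs), a log2 ratio of 0.14 (interval 0.12 to 0.16). Per nucleus the level was 15.1 and 18.7 UMIs, and 86.2% and 93.6% of nuclei held a UMI. Microglia-like nuclei held 208 and 295 CPM (0.50, interval 0.31 to 0.70), and excitatory, inhibitory and other neuron-like nuclei had ratios of 0.67, 0.54 and 0.67. As for *Apod*, the level per neuron was alike across classes, at 0.373, 0.385 and 0.383 UMIs in Normal and 0.625, 0.615 and 0.667 in SAH. Single neuron clusters varied more, from 0.170 to 1.19 in Normal and from 0.519 to 1.08 in SAH. Of the 28 clusters, *Ptgds* was higher in SAH in 26 (23 beyond counting error) and lower in 2 (both beyond it). The share of all genes with such counts is not given. In precursor-like nuclei it was 170 and 233 CPM (0.46, interval -0.28 to 1.21), and in the unnamed cluster 892 and 882 CPM (-0.02, interval -0.43 to 0.39). Relative to genes of like length, *Ptgds* stood at 0.70 in oligodendrocyte-like nuclei and just past 2-fold in microglia-like, inhibitory and other neuron-like nuclei, at 1.07, 1.11 and 1.09. In other neuron-like nuclei it also passed 2-fold with doublets kept (1.03). With the excitatory level per nucleus subtracted as background the ratio there was 1.96. That level, 0.373 and 0.625 UMIs, was nearly the class's own, 0.383 and 0.667, so the 1.96 cannot show the size of the *Ptgds* difference.

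*Clu*, the secreted chaperone clusterin, was higher in neurons than in oligodendrocyte-like or microglia-like nuclei and was lower in SAH across neuron types. Per nucleus it stood at 0.341 UMIs in Normal and 0.227 in SAH in excitatory, 0.414 and 0.251 in inhibitory, and 0.553 and 0.283 in other neuron-like nuclei. Oligodendrocyte-like nuclei held 0.0328 and 0.0207, and microglia-like nuclei 0.0212 and 0.0141. Per nucleus, unlike *Apod*, *Clu* was thus far lower in oligodendrocyte-like nuclei than in neurons, whose nuclei are mostly deeper. Scaled to total UMIs the gap was smaller, with 15.3 and 8.63 CPM in oligodendrocyte-like nuclei against 26.6 and 16.7 in excitatory ones. The lowest neuron clusters, at 9.47 CPM in Normal and 6.09 CPM in SAH, lay below the oligodendrocyte level. In CPM, other neuron-like nuclei went from 51.9 to 24.3 (log2 ratio -1.09, interval -1.21 to -0.98), the only class with 50 UMIs in which *Clu* fell. Inhibitory nuclei went from 47.8 to 26.4 CPM (-0.86, interval -1.03 to -0.69) and excitatory nuclei from 26.6 to 16.7 CPM (-0.67, interval -0.78 to -0.55), both short of 2-fold. These calls depend on the setting: the ratio in other neuron-like nuclei was -0.82 against genes of like length and -0.78 at a clustering resolution of 0.6, but -1.48 when thinned to 1000 UMIs and -2.04 with background subtracted. In inhibitory nuclei it was -0.50 against genes of like length, -1.19 when thinned, -1.54 as the mean of nuclei and -1.73 with background subtracted. The background subtracted was the excitatory level per nucleus, where *Clu* was far higher than in oligodendrocyte-like nuclei. The values with background subtracted therefore cannot show the size of the *Clu* difference.

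Neuron types differed in *Clu* far more than the libraries did. Leaving out the shallow cluster c21 (196 and 23.3 CPM), the Normal level over 27 clusters ran from 9.47 CPM in a cluster led by *Glis3*, *Smoc2* and *Prox1* to 83.9 CPM in the *Vip* interneuron cluster. In SAH it ran from 6.09 CPM in a cluster led by *Lef1* and *Tcf7l2*, genes of thalamic neurons, to 44.2 CPM in the same *Vip* cluster. Clusters high in Normal were high in SAH, with a Pearson r of 0.91 and a Spearman rho of 0.88 over the 27 clusters, which share their library and are given as a description. For *Apod* the same figures were 0.49 and 0.53, for *Apoe* 0.64 and 0.61, and for *Ptgds* 0.67 and 0.77. *Apod* and *Apoe* were sparser in Normal, with cluster medians of 0.0735 and 0.108 UMIs per nucleus against 0.361 for *Clu*. The part of counting error in these figures was not tested. *Clu* was lower in SAH in 27 of 28 neuron clusters, in 21 beyond counting error. The exception was a cluster led by *Ccbe1* and *Mndal*, at 10.9 and 11.4 CPM. In the unnamed cluster *Clu* stood at 622 and 496 CPM (-0.33, interval -0.85 to 0.20), the highest level of any class, and its nuclei with the most astrocyte markers held 46 of 69 UMIs in Normal and 32 of 59 in SAH.

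In excitatory neuron-like nuclei 6 of the 7 genes had 50 UMIs: *Apod* rose, as did 8.73% of 17317 genes, and *Apoe* fell, as did 4.99%. Inhibitory neuron-like nuclei gave the same pair of calls, where 4.9% of 14330 genes rose and 5.36% fell. In other neuron-like nuclei *Apod* rose and *Apoe* and *Clu* fell, against 6.23% and 4.52% of 16723 genes. In microglia-like nuclei 4 of the 7 were tested and *Apod* alone rose, where 6.89% of 9051 genes rose and 5.19% fell. The median of all genes in these 4 classes was -0.11, -0.18, -0.15 and 0.01.

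*Fabp5*, which carries fatty acids to nuclear receptors, fell in oligodendrocyte-like nuclei, from 66.1 CPM (246 UMIs) to 19.9 CPM (171 UMIs). The log2 ratio was -1.73 (interval -2.02 to -1.44), and relative to genes of like length it was -1.22. The genes were chosen with values of this class known, so the ratio is given as a description. The share of nuclei with a UMI went from 12.4% to 4.51%, and from 7.24% to 2.20% when thinned. All 3 oligodendrocyte-like clusters present in both libraries showed it. Elsewhere the difference was smaller: 24.7 and 12.6 CPM in microglia-like nuclei (-0.98, interval -1.73 to -0.24), and 8.17 and 5.33, 12.7 and 8.55, and 10.7 and 7.46 CPM in excitatory, inhibitory and other neuron-like nuclei (-0.62, -0.57 and -0.52). In inhibitory nuclei the direction turned when nuclei were thinned to 1000 UMIs (0.36).

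*Fabp3*, the heart and neuronal form, went the other way in oligodendrocyte-like nuclei, at 11.01 and 13.99 CPM, with an interval that spans no change (0.35, -0.18 to 0.89). Neurons held less of it in SAH, with 9.34 and 6.36 CPM in excitatory (-0.56), 12.8 and 7.04 CPM in inhibitory (-0.86) and 10.6 and 5.97 CPM in other neuron-like nuclei (-0.82), none past 2-fold. *Fabp7*, the form of astrocytes and progenitors, was nearly absent, with 61 UMIs in all Normal nuclei and 60 in all SAH nuclei, and reached 50 UMIs in no class. Its level was highest in the precursor-like nuclei, at 28.3 and 32.4 CPM from 5 UMIs in each library. Over all kept nuclei, the 61 and 60 UMIs are 0.631 and 0.428 CPM (-0.56, interval -1.10 to -0.02). In oligodendrocyte-like nuclei there were 9 and 5 UMIs (-2.05, interval -3.98 to -0.32) and in other neuron-like nuclei 19 and 11 (-1.17, interval -2.39 to -0.02), while the intervals of the other classes with a *Fabp7* UMI spanned no change.

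The oligodendrocyte-like nuclei fell into 4 clusters, and the secreted carriers differed among them. Cluster c2 (699 Normal and 1211 SAH nuclei) had the highest *Anln* and *Hapln2*, at 935 and 287 CPM over both libraries. Cluster c3 (448 and 1400) had the highest *Il33*, 515 CPM, and c5 (591 and 838) the highest *Opalin*, 443 CPM. Cluster c34 held 120 nuclei, all of the SAH library, where 0 of 1738 Normal nuclei allow a share of up to 0.173%. Beside 11 of the 12 oligodendrocyte markers c34 carried 4 of 8 general neuron markers, where c2, c3 and c5 carried 0, and the part of neuronal transcripts in its values was not tested. The shares of c2, c3 and c5 were 40.2%, 25.8% and 34% in Normal and 33.9%, 39.2% and 23.5% in SAH.

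*Apod* was highest in c2 in both libraries, at 1784 CPM in Normal and 5148 CPM in SAH (log2 ratio 1.53, interval 1.47 to 1.59). The *Il33* cluster c3 held 1545 and 3500 CPM (1.18, interval 1.08 to 1.28) and the *Opalin* cluster c5 held 731 and 1132 CPM (0.63, interval 0.53 to 0.73). The spread between the highest and lowest cluster in UMIs per nucleus was also wider in SAH, at 4.23-fold (c2 and c5), than in Normal, at 2.14-fold (c2 and c3). *Apoe* had another order, lowest in c2 at 396 and 183 CPM (-1.11), then c5 at 722 and 313 CPM (-1.21), and highest in c3 at 1410 and 452 CPM (-1.64, interval -1.77 to -1.51). *Ptgds* was lowest in c2 too, at 3087 and 4396 CPM (0.51), with 13257 and 10445 CPM in c3 (-0.34) and 8973 and 9932 CPM in c5 (0.15). *Fabp5* was alike in the Normal clusters, at 63.4, 77.3 and 64.9 CPM in c2, c3 and c5, and stood at 20.6, 28.5 and 12.2 CPM in SAH. The SAH cluster c34 held 264 CPM of *Apoe*, 2495 of *Apod* and 6263 of *Ptgds*, each within the range of the other SAH clusters.

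With the SAH clusters weighted by their shares in Normal, which leaves out c34, the oligodendrocyte log2 ratio was -1.30 for *Apoe*, 1.30 for *Apod* and 0.11 for *Ptgds*. Clustered without integration of the libraries, the nuclei separated by library instead, and the values within clusters changed. A cluster of 1659 Normal and 140 SAH nuclei held 1269 and 835 CPM of *Apod* (-0.60) and 704 and 343 CPM of *Apoe* (-1.04). Another, of 68 Normal and 2966 SAH nuclei, held 2387 and 3920 CPM of *Apod* (0.72) and 259 and 321 CPM of *Apoe* (0.31, interval -0.16 to 0.82). The values by cluster above therefore rest on the integration, while those of the whole class do not (-1.19 and 1.38 without it).

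**Figure D5:**
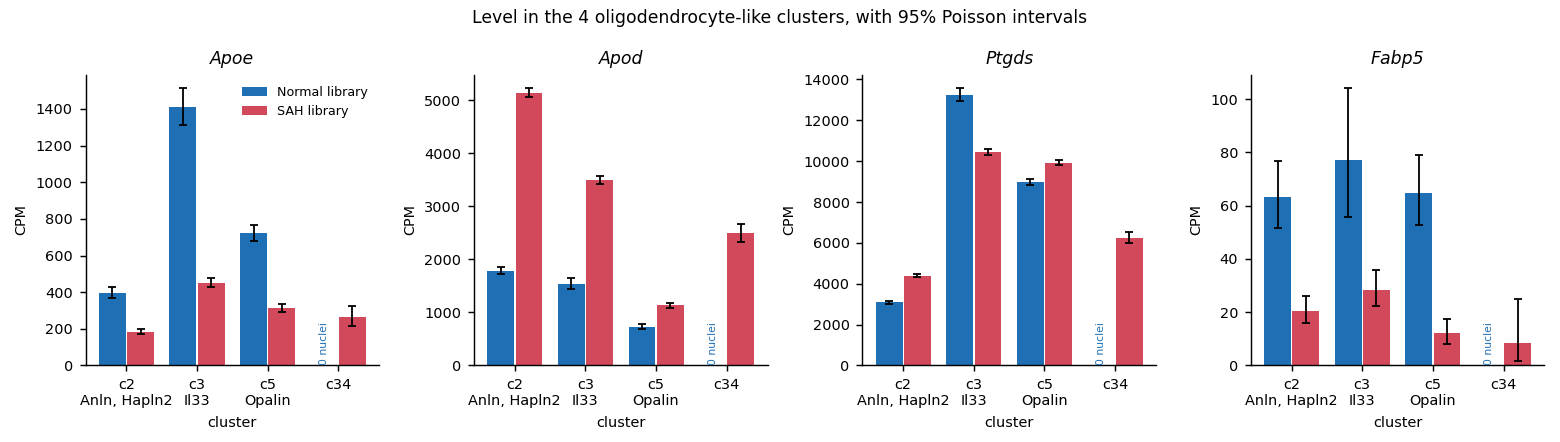
CPM in the 4 oligodendrocyte-like clusters, with blue bars for the Normal and red bars for the SAH library and exact 95% Poisson intervals. *Apod* is highest in c2 and lowest in c5 in both libraries, *Apoe* is highest in c3, and c34 has 0 Normal nuclei.

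Transcripts of astrocytes, the main makers of *Apoe*, were followed as a possible source of free RNA. The summed list of astrocyte cytoplasmic transcripts (*Cst3*, *Cpe*, *Mt1*, *Mt2*, *Mt3*, *Glul*, *Sparcl1* and *Plpp3*) stood at 1.76 UMIs per oligodendrocyte-like nucleus in Normal and 1.14 in SAH, with 8 of 8 detected in each. In microglia-like nuclei it went from 16.3 to 4.47, in excitatory nuclei from 7.87 to 6.85 and in inhibitory nuclei from 5.66 to 4.24. Several of these genes are also expressed by microglia or neurons. The list of 12 nuclear astrocyte markers went from 0.554 to 0.439 UMIs per oligodendrocyte-like nucleus, with 12 of 12 detected in each, and from 9.21 to 8.94 per excitatory nucleus. It was higher in SAH in microglia-like (0.574 and 0.829), inhibitory (3.56 and 4.17) and other neuron-like nuclei (9.42 and 11.98). Both lists were lower in SAH oligodendrocyte-like nuclei, as *Apoe* was, and their part in the *Apoe* value was not tested. The border macrophage list there went from 0.00403 to 0.0249 UMIs per nucleus, from only 7 and 89 UMIs. Of its genes 5 of 7 were detected in each library, with *Cd163* at 0 in both. The part of border macrophage RNA in the *Apoe* value was not tested.

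Beyond the 7 genes, 79 other genes of lipid carriage in 6 lists were followed. The lists were other apolipoproteins, lipoprotein receptors, lipoprotein lipidation, the prostaglandin D2 route, intracellular fatty acid and retinoid carriers, and secreted lipocalins. Their median log2 ratio lay below that of all genes in oligodendrocyte-like, microglia-like and all 3 neuron classes. In the same classes a larger share of these genes than of all genes fell, and neither difference was tested. In excitatory neuron-like nuclei a larger share rose as well. With few genes, the median was 0.55 against 0.04 in precursor-like and -0.30 against 0.24 in border macrophage-like nuclei. Some genes, such as *Abca7*, recur across classes, and the lists were not compared with genes of like length. In oligodendrocyte-like nuclei 33 of the 79 had 50 UMIs, of which 2 rose and 4 fell, against 8.08% and 5.84% of all genes, with a median of -0.12 against -0.05. By list the medians there ran from 0.02 for 2 other apolipoproteins to -0.65 for 4 genes of the prostaglandin D2 route, beside *Ttr* alone among the secreted lipocalins. *Rxra*, a partner of the liver X receptors, rose from 2.15 to 5.71 CPM (1.41, interval 0.32 to 2.70), from 8 and 49 UMIs. *Sorcs2*, a sortilin-family receptor, rose from 4.03 to 9.68 CPM (1.26, interval 0.46 to 2.16), from 15 and 83 UMIs. *Abca7*, a lipid exporter, fell from 19.9 to 5.25 CPM (-1.92), and *Pla2g4a*, the phospholipase that frees arachidonic acid, fell from 96.7 to 43.5 CPM (-1.15). *Ttr*, the choroid plexus carrier of thyroxine and retinol, fell both here (-1.61) and in microglia-like nuclei (-1.49).

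Microglia-like nuclei had 30 of the 79 with 50 UMIs, of which 1 rose and 4 fell, against 6.89% and 5.19% of all genes (median -0.01 against 0.01). *Trem2*, the microglial receptor for lipids and for apolipoprotein E, fell from 1027 to 212 CPM (-2.28, interval -2.43 to -2.13), while *Lpl*, lipoprotein lipase, rose from 10.3 to 64.0 CPM (2.64, interval 1.87 to 3.51). *Hpgd*, which inactivates prostaglandins, fell from 442 to 195 CPM (-1.18). *Trem2* fell in the class where its ligand *Apoe* was nearly level. The summed microglia list (10 of 10 detected) was itself lower in SAH in this class, at 22362 and 12660 CPM. Its part in these values was not tested.

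Of the 54 tested in excitatory neuron-like nuclei 6 rose and 7 fell, against 8.73% and 4.99% of all genes (median -0.25 against -0.11), led by *Lipc*, hepatic lipase (1.69), *Cd36* (1.54) and *Lsr* (1.37) upward and by *Trem2* (-2.31), *Lpl* (-1.73) and *Abca7* (16.8 to 5.81 CPM, -1.53) downward. *Trem2* is a microglial gene, and its neuronal level of 1.46 CPM in Normal and 0.295 in SAH is low. The *Cd36* ratio rests on 11 and 49 UMIs, with an interval of 0.58 to 2.64. Of the 39 in inhibitory nuclei 1 rose and 4 fell, against 4.9% and 5.36% of all genes (-0.24 against -0.18), with *Lipc* upward (2.04) and *Rbp4*, the retinol carrier, going from 54.2 to 16.1 CPM (-1.75), beside *Ptgs1* (-1.12) and *Abca7* (-1.08). Among the 51 in other neuron-like nuclei 2 rose and 6 fell, against 6.23% and 4.52% of all genes (-0.25 against -0.15), with *Lipc* (1.98) and *Lsr* (1.38) upward and *Apoa1* (3.54 to 0.932 CPM, -1.93), *Trem2* (-1.76) and *Apoa2* (-1.47) downward. In precursor-like and border macrophage-like nuclei 5 and 4 of them had 50 UMIs and 0 passed 2-fold. *Lipc* and *Lsr* were low in Normal neurons as well. There *Lipc* stood at 0.514, 0.788 and 0.951 CPM in excitatory, inhibitory and other neuron-like nuclei. Its Normal and SAH UMIs in these classes were 24 and 118, 11 and 58, and 29 and 149. *Lsr* stood at 0.579 and 0.492 CPM in Normal excitatory and other neuron-like nuclei. Its ratios rest on 27 and 107 UMIs and on 15 and 51 UMIs.

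Across 72 profiles (clusters by library with at least 50 nuclei), the genes most like *Apod* and *Ptgds* in log2(CPM + 1) were genes known from oligodendrocytes. *Apod* was most like *Ptgds* (Pearson r 0.95), *Cdh19* (0.93) and *Trf* (0.93), and *Ptgds* was most like the myelin genes *Cldn11* (0.95) and *Mog* (0.95) and the connexin *Gjc3* (0.95). *Apoe* followed *Fth1*, *Tmbim6* and *Lamp1* (0.94, 0.94 and 0.93), which are expressed in all cells. *Clu* was most like *Slc1a4* (0.79), *Scg3* (0.77) and *Podxl2* (0.76). The fatty acid binding proteins had weaker partners, *Fis1*, *Tpgs1* and *Sf3b4* for *Fabp5* (0.80, 0.78 and 0.78), *Gsk3a*, *Idh3g* and *Ap2m1* for *Fabp3* (0.76, 0.75 and 0.74), and *Cenpx*, *Itih3* and *Stk17b* for the sparse *Fabp7* (0.66, 0.66 and 0.64). The profiles share libraries and depths, and these correlations are a description.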

How the data were processed

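Single-nucleus RNA was captured with a droplet 3′ kit from 2 libraries, 1 per condition. The authors deposited raw UMI counts per gene and nucleus without normalization, for 32285 genes, made with Cell Ranger against the mm10 reference with intronic reads included. The submitters' notes name version 5.0.0, and the file headers version 6.1.2. Nuclei with 300 to 7000 genes, under 10% mitochondrial and 3% haemoglobin UMIs and under 100000 UMIs were kept, which removed 71 Normal and 29 SAH nuclei. Scrublet (scanpy 1.11.5) took the place of the study's doublet tool, and the nuclei it scored highest, 0.8% per 1000, were removed (1178 and 2644). The libraries shared 78 barcode sequences. The study counts more sham than SAH nuclei, the reverse of the files.

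Seurat 5.3.0 (R 4.3.3) was used to join the libraries by canonical correlation and to cluster them (2000 features without the 7 genes and the other lipid genes, 25 components, resolution 1.2). A class name needed at least 3 markers of a fixed list. The naming limits were set after the clusters were seen. UMIs were summed per class and library and compared as CPM with exact Poisson, binomial and conditional binomial intervals (scipy 1.17.1). No test was run, since there was 1 library per condition. Genes named were the 7 members, up to 3 rises and 3 falls of the lipid lists per class, and the 3 genes most like each member among those with 200 UMIs. Members and lists were chosen with earlier results of these data known. Ratios were tested on simulated data. Alternatives changed the filter, doublets, integration, resolution, features, class definition, centring, averaging, thinning and background.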

Additional observations from a re-analysis of the deposited data

Results flagged for a closer look

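*Ptgds* went in opposite directions in the oligodendrocyte-like clusters: the log2 ratio, SAH over Normal, was 0.51 (interval 0.46 to 0.56) in the *Anln* and *Hapln2* cluster c2, -0.34 (interval -0.38 to -0.31) in the *Il33* cluster c3 and 0.15 (interval 0.12 to 0.18) in the *Opalin* cluster c5. With 1 library per condition the difference between clusters was not tested. The clusters rest on the integration of the libraries, without which *Ptgds* was higher in SAH in both clusters compared (0.61 and 1.16).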

How the results depend on the processing

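Of 522 values under an alternative setting, 417 moved by less than their counting interval or, for counts of genes, by less than 1.5 times, 102 moved by more and 3 changed direction. In oligodendrocyte-like nuclei the *Apoe* log2 ratio kept its sign under all 13 alternatives (-1.31 to -0.58). It moved to -1.27 with doublets kept, to -0.58 relative to genes of like length, to -1.31 as the mean of nuclei, to -1.02 in UMIs per nucleus and to -1.30 at the Normal cluster shares. *Apod* kept its sign under all 13 (1.22 to 1.55) and moved to 1.30 with doublets kept, 1.43 and 1.54 when centred on all genes and on genes of like length, 1.22 as the mean of nuclei, 1.28 thinned, 1.55 in UMIs per nucleus and 1.30 at the Normal cluster shares. The 2 weightings by cluster share, and the values without c21, were chosen after seeing the data. Of the genes tested in that class, 1490 rose with a minimum of 20 UMIs and 420 with 200, where 333 fell, against 921 and 666 with 50: a higher minimum tests fewer genes. *Fabp5* changed direction in inhibitory nuclei when thinned (0.36) or with background subtracted (0.74), and in other neuron-like nuclei with background subtracted (0.49). The cause was not tested. The background subtracted was the excitatory level per nucleus, a neuron level near that of these classes, so the 0.74 and 0.49 cannot show a direction. Precursor-like and border macrophage-like classes were not found without doublet removal or without integration, nor were border macrophages with the members kept among the features. Background subtraction gave no value for excitatory nuclei, and gating nuclei one at a time gave no other neuron-like class. Depth limits *Fabp7*, and most values in the 29 to 42 nuclei of the smallest classes. No paired analysis was possible because there was 1 library per condition.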
